A study of Mus musculus with 6 samples.

Results

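BCL2 family proteins govern whether the outer mitochondrial membrane is opened, the committed step of the mitochondrial route of apoptosis. The genes followed here were chosen by symbol in the read count table, and all 10 were found among the 31205 genes of the table. They fall into survival proteins (Bcl2, Bcl2l1 and Mcl1), which hold the pore-forming effectors in check, effectors (Bak1 and Bok), and BH3-only proteins (Bcl2l11, Bid, Bad, Bik and Bmf), which bind the survival proteins or the effectors and tip the balance towards death. In mouse dendritic cells, BCL-2 and BIM, the product of Bcl2l11, are known to influence how long an activated cell survives.

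The libraries came from DC2.4, an established mouse dendritic cell line. The line was immortalised from mouse bone marrow. The PD-L1 knockout derivative (KO) and DC2.4 cells labelled Control were each sequenced as 3 libraries of total RNA. The labels name no treatment of either group, and they do not tell whether the KO line is 1 clone or whether libraries of a group are separate cultures. The p-values thus reflect library-to-library spread, which could be purely technical. According to its title the study concerns PD-L1 and ferroptosis, a caspase-independent death driven by iron, in dendritic cells under immunogenic chemotherapy.

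KO libraries held 13501776 to 21133688 counts and Control libraries 10918498 to 23250065 counts. The targeted gene, Cd274, had 102, 81 and 163 counts in KO libraries 1, 2 and 3, against 52, 99 and 171 in Control libraries 1, 2 and 3, and did not pass the test (log2 fold change 0.28, SE 0.25, edgeR adjusted p = 0.415). An edit within the coding sequence need not alter a gene's read count, so the labels are not checked by this value and set every direction below. Of 18 dendritic cell markers, 9 had enough counts to be tested: Irf8, Cd86, Sirpa and Itgax were present, whereas Clec9a had 0 counts throughout and Flt3 and H2-Ab1 were at or near 0. Of these 9, Sirpa (log2 fold change -0.43), Zbtb46 (-0.72) and Cadm1 (-0.79) were lower in KO libraries and 0 were higher by the edgeR test described below, at adjusted p of 0.0332, 0.0490 and 0.0139. Of 12 macrophage and monocyte markers, 10 were tested, of which 6 were lower and 0 higher in KO libraries, where 13.5% of all genes tested were lower and 11.8% higher. The summed level of the dendritic cell list was 654 to 692 CPM (counts scaled to the TMM-adjusted library total) in KO libraries and 752 to 810 CPM in Control libraries. That of the macrophage and monocyte list was 783 to 1114 CPM in KO libraries and 1016 to 1261 CPM in Control libraries. Their part in the results was not tested. KO library 1 stood apart from the other KO libraries on the second principal component. Control library 2 held 2235 counts of Col1a1 and 1382 of Fn1, genes of stromal cells, with at most 5 and 3 in any other library. The other stromal and fibroblast markers listed did not reach such counts in Control library 2. It held 59 of Acta2, 22 of Col1a2, 10 of Col3a1, 7 of Pdgfrb, and 0 of Dcn, Pdgfra and Thy1. Each call below is therefore given with the libraries on which it depended. In bulk RNA, fewer cells of a type and less RNA per cell cannot be told apart.

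Bid was higher in KO libraries, and Bmf and Bcl2 were lower. These were the 3 calls among the 9 members that had enough counts to be tested (1 higher, 2 lower, 6 not called), where a call is an adjusted p under 0.05 in edgeR's quasi-likelihood test across all 11453 genes tested. Of all genes tested, 25.3% were called (11.8% higher and 13.5% lower in KO libraries), so a count of 3 in 9 is near the background for this pair of lines. The median log2 fold change of the 9 was 0.27, against 0.01 over all genes tested. The groups did not overlap for 6 of the 9, against 43% of all genes tested. The 10th member, Bok, was too low to test.

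The promoters of the 3 called genes and of Bcl2l11 are shown because the called genes moved in different directions and because Bcl2l11 is the textbook target of FOXO factors among the members. Each runs 5′ to 3′ on the gene's strand from 250 bases before to 50 bases after the outermost RefSeq start (build GRCm38.p6, the assembly of mm10). Capitals mark matches, on either strand, to GTAAACA (the FOXO motif), TGACG (the core of the cyclic AMP response element), GGGCGG (the GC box) and CCAAT. The Bid window is at chr6:120916775-120917074 (minus strand), that of Bmf at chr2:118549637-118549936 (minus strand), that of Bcl2 at chr1:106714241-106714540 (minus strand) and that of Bcl2l11 at chr2:128125788-128126087 (plus strand).
Bid: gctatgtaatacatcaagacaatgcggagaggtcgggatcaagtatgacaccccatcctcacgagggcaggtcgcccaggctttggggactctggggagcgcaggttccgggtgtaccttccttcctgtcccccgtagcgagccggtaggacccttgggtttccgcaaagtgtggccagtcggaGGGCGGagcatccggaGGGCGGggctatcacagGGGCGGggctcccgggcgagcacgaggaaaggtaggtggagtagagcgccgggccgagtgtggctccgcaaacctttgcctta
Bmf: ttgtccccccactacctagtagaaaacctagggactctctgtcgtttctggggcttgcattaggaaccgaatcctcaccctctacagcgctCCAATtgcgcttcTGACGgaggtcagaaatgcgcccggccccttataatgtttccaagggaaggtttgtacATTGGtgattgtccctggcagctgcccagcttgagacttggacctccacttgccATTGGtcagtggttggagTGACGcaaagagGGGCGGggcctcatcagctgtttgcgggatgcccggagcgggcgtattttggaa
Bcl2: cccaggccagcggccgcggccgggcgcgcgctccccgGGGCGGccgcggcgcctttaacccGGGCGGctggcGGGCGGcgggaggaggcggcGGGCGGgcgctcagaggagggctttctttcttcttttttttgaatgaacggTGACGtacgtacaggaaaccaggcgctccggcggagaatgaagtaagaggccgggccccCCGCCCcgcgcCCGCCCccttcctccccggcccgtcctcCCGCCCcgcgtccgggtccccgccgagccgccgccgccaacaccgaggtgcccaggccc
Bcl2l11: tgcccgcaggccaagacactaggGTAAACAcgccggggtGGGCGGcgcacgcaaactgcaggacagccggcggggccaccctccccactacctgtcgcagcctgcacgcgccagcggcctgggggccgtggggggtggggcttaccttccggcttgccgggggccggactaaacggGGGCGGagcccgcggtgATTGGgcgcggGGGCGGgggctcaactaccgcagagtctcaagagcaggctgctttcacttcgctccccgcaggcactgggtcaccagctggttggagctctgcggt

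Among the 15 start-site windows of the 9 members with a RefSeq entry, the only match to GTAAACA was the one in the Bcl2l11 window, 227 bases before the start. That motif occurred in 3.65% of all 32851 windows of the same length. The core TGACG was found in 3 of the 15 windows, those of Bmf (2 matches), Bcl2 (1 match) and Mcl1, and in 20.8% of all windows. The full element TGACGTCA was in 0 of the 15 and in 1.79% of all windows. GGGCGG lay in 8 of the 15 windows and in 35.7% of all. The Bcl2 window held 7 of them, and those of Bid and Bcl2l11 held 3 each. CCAAT was in 5 of the 15 windows and in 37.4% of all, with 3 matches in the Bmf window. In base composition the Bcl2 window was 76.0% G and C, Bcl2l11 71.0%, Bid 63.3% and Bmf 55.3%. Of the other motifs searched, the NF-kB motif (GGG and CC with any 5 bases between them) lay in 12 of the 15 windows and in 50.8% of all, in places overlapping a GC box. TATAAA (13.6% of all windows), CACGTG (7.15%), TGANTCA (AP-1, 7.81%) and TGCAAT (CHOP, 8.40%) had 0 matches in the members' windows. All 10 motifs were chosen with the calls known, and a match describes letters only.

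Among the survival genes, Bcl2 was the called one. Bcl2, the founding survival protein of the family (ENSMUSG00000057329.7, mm10 chromosome 1, 106538178 to 106714274), had 19.6, 12.6 and 13.3 CPM in KO libraries 1, 2 and 3, against 21.8, 28.9 and 26.1 CPM in Control libraries 1, 2 and 3. Every KO library lay below every Control library, with KO library 1 closest to the Controls. The means were 15.2 ± 3.81 CPM in KO and 25.6 ± 3.56 CPM in Control (SD, n = 3 each), a log2 fold change of -0.76 (95% interval -1.20 to -0.32, SE 0.20, edgeR adjusted p = 0.0215). The call was lost without KO library 2 (adjusted p = 0.0894), KO library 3 (0.0866), Control library 2 (0.107) or Control library 3 (0.0569), and the adjusted p ranged from 0.000850 to 0.107 over 17 alternatives. Without KO library 1 the log2 fold change was -0.99. With offsets for exon length and GC content Bcl2 was at -0.53 (edgeR adjusted p = 0.0446). With the replicate number as a block beside those offsets it was not called (-0.54, edgeR adjusted p = 0.0616). An antisense gene that shares 6.09% of the exon bases of Bcl2, D630008O14Rik, had at most 2 counts in any library.

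Mcl1, the short-lived survival protein that binds BAK, BIM and others (mm10 chromosome 3, 95658788 to 95663176), was the most abundant member. It had 610, 781 and 696 CPM in KO libraries 1, 2 and 3, against 537, 512 and 570 CPM in Control libraries 1, 2 and 3. The groups did not overlap, and KO library 1 was the lowest of the KO libraries. The averages of 696 ± 85.4 CPM in KO and 540 ± 29.2 CPM in Control gave a log2 fold change of 0.37 (SE 0.14, edgeR adjusted p = 0.0726), which did not pass the threshold. It passed without KO library 1 (0.45, edgeR adjusted p = 0.0152) and by DESeq2's Wald test (adjusted p = 0.0407), in a range of 0.0152 to 0.258 over its 17 alternatives. Bcl2l1, which encodes the survival protein BCL-XL (mm10 chromosome 2, 152780668 to 152831728), had 61.9, 79.7 and 87.5 CPM in KO libraries 1, 2 and 3, against 65.6, 68.2 and 71.8 CPM in Control libraries. KO library 1 was below all Controls and the other KO libraries were above them. The log2 fold change of 0.16 (95% interval -0.18 to 0.49, edgeR adjusted p = 0.460) did not pass, and it was -0.0012 when libraries were scaled by total counts alone.

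**Figure D1:**
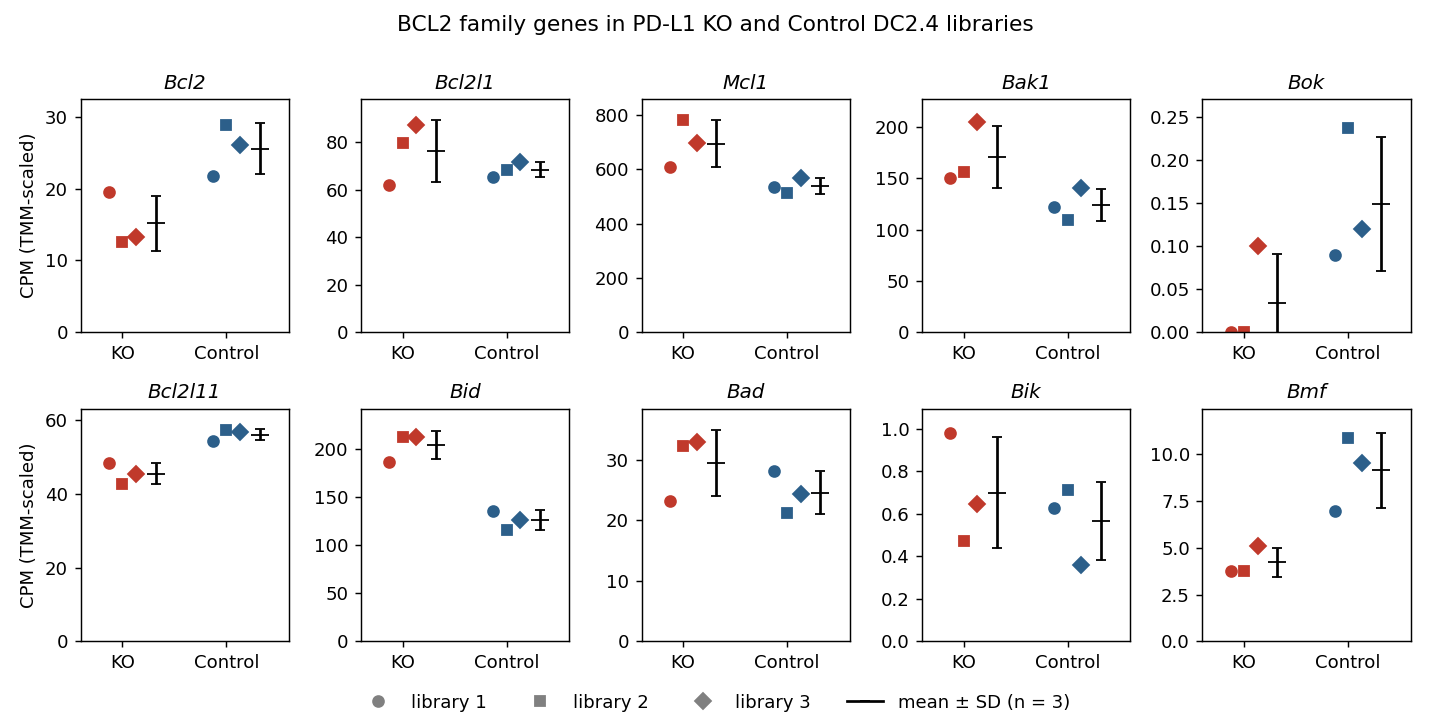
TMM-scaled CPM of the 10 members in the 3 KO and 3 Control libraries (points, one symbol per library number; bars are mean ± SD, n = 3; each panel has its own axis from 0). Bid lies between 187 and 212 CPM in KO libraries and between 115 and 136 CPM in Control libraries, while Bcl2, Bcl2l11 and Bmf lie lower in every KO library than in any Control library.

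Neither effector gene was called. Bak1, whose protein forms the pore in the outer mitochondrial membrane (mm10 chromosome 17, 27019810 to 27029009), had 150, 157 and 205 CPM in KO libraries 1, 2 and 3, against 122, 110 and 140 CPM in Control libraries 1, 2 and 3. The groups did not overlap, by a margin of 150 CPM in the lowest KO library against 140 CPM in the highest Control library. Its log2 fold change was 0.46 (SE 0.16, edgeR adjusted p = 0.0571), and the median over the 591 genes tested on chromosome 17 was 0.38, so that Bak1 lay 0.09 above the median of its chromosome. Bak1 was called without KO library 1 (0.54, edgeR adjusted p = 0.0149), without the filter on low counts (0.0314), with the replicate number as a block (0.0354) and by DESeq2 (0.0320). With offsets for exon length and GC content it was 0.24 (adjusted p = 0.230). The gene shares 25.5% of its exon bases with Ggnbp1, which had 24 to 50 counts in KO libraries and 17 to 47 in Control libraries, against at least 1360 of Bak1. Bok, an effector regulated mainly by protein turnover (mm10 chromosome 1, 93685660 to 93695764), had 0, 0 and 2 counts in KO libraries and 1, 4 and 3 in Control libraries, too few for a comparison.

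The BH3-only genes held both the called rise and the largest called fall among the members. Bid encodes the protein that caspase 8 cleaves to carry a death receptor signal to mitochondria (ENSMUSG00000004446.12, mm10 chromosome 6, 120891930 to 120916853). It had 187, 212 and 212 CPM in KO libraries 1, 2 and 3, against 136, 115 and 126 CPM in Control libraries 1, 2 and 3. All KO libraries were above all Control libraries, with a gap wider than the range within either group. Bid averaged 204 ± 14.7 CPM in KO and 126 ± 10.2 CPM in Control (SD, n = 3 each), 1.62-fold higher (log2 fold change 0.70, SE 0.13, 95% interval 0.41 to 0.98, edgeR adjusted p = 0.00665). It kept its call in 16 of 17 alternatives, with log2 fold changes of 0.54 to 0.76. The exception was the fit without Control library 2 (0.64, edgeR adjusted p = 0.0515). Exons of Bcl2l13 on the opposite strand cover 17.7% of the exon bases of Bid, and Bcl2l13 itself had 82.8 ± 7.74 CPM in KO and 76.1 ± 3.10 CPM in Control (log2 fold change 0.12, edgeR adjusted p = 0.500).

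Bmf encodes a BH3-only protein held at the cytoskeleton through dynein light chain (ENSMUSG00000040093.15, mm10 chromosome 2, 118528757 to 118549687). It had 50, 56 and 103 counts in KO libraries 1, 2 and 3, against 78, 184 and 239 in Control libraries 1, 2 and 3. Scaled, these were 3.77, 3.76 and 5.12 CPM in KO libraries, against 6.98, 10.9 and 9.55 CPM in Control libraries. The highest KO library was below the lowest Control library. Bmf averaged 4.22 ± 0.783 CPM in KO and 9.14 ± 1.99 CPM in Control (SD, n = 3 each), a log2 fold change of -1.11 (95% interval -1.67 to -0.56, SE 0.25, edgeR adjusted p = 0.0135). The call was lost without KO library 2 (adjusted p = 0.0570) or Control library 2 (0.0795) and held in the other 15 of 17 alternatives, at log2 fold changes of -1.28 to -0.91. The median over chromosome 2, which also carries Bcl2l1 and Bcl2l11, was -0.19.

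Bcl2l11, the BIM gene (mm10 chromosome 2, 128126038 to 128162547), had 48.4, 42.6 and 45.5 CPM in KO libraries 1, 2 and 3, against 54.4, 57.3 and 56.9 CPM in Control libraries 1, 2 and 3. The groups did not overlap and the spread within each was narrow, yet the difference was small. The log2 fold change of -0.30 (95% interval -0.58 to -0.03, SE 0.12, edgeR adjusted p = 0.0936) did not pass. It passed with total counts alone (-0.46, edgeR adjusted p = 0.0348) and without KO library 1 (-0.36, 0.0419), and it was -0.08 (0.588) with the trends in exon length and GC content removed. Bad, whose protein is kept inactive by phosphorylation and binding to 14-3-3 proteins (mm10 chromosome 19, 6941861 to 6951899), had 23.3, 32.4 and 32.9 CPM in KO libraries, against 28.2, 21.2 and 24.5 CPM in Control libraries. KO library 1 lay among the Controls and the other KO libraries above them (log2 fold change 0.27, 95% interval -0.13 to 0.66, edgeR adjusted p = 0.280). Gpr137, which shares 20.5% of the exon bases of Bad, had a log2 fold change of -0.02. Bik, a BH3-only protein of the endoplasmic reticulum (mm10 chromosome 15, 83526862 to 83544634), had 13, 7 and 13 counts in KO libraries and 7, 12 and 9 in Control libraries. At this depth a difference in Bik was not detectable (log2 fold change 0.33, 95% interval -0.75 to 1.41, edgeR adjusted p = 0.635).

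**Figure D2:**
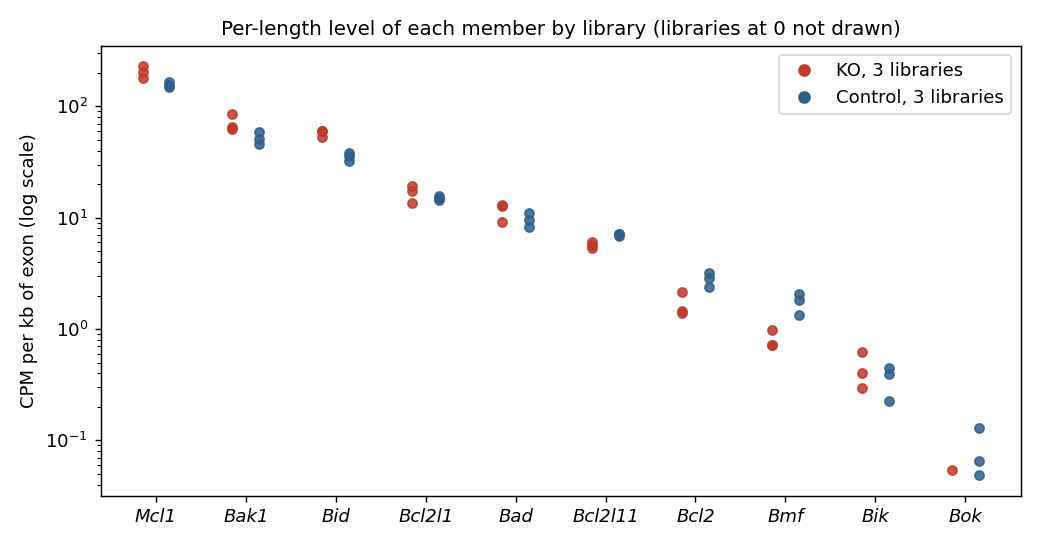
CPM per kb of annotated exon for each member in each library, on a log axis (points; KO left of Control within each gene; libraries with 0 counts are not drawn). The members span from Mcl1, at 179 to 229 in KO libraries and 150 to 167 in Control libraries, down to Bok, and stand in the same order in both groups.

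Levels of different genes were compared per kb of annotated exon. In KO libraries the order of mean CPM per kb was Mcl1 (204 ± 25.0), Bak1 (71.0 ± 12.5), Bid (57.4 ± 4.15), Bcl2l1 (16.7 ± 2.86), Bad (11.5 ± 2.12), Bcl2l11 (5.67 ± 0.358), Bcl2 (1.66 ± 0.416), Bmf (0.803 ± 0.149), Bik (0.440 ± 0.163) and Bok (0.0180 ± 0.0312). In Control libraries it was the same, with Mcl1 at 158 ± 8.54, Bak1 at 51.5 ± 6.46, Bid at 35.4 ± 2.87, Bcl2l1 at 14.9 ± 0.676, Bad at 9.62 ± 1.36, Bcl2l11 at 7.0 ± 0.194, Bcl2 at 2.80 ± 0.389, Bmf at 1.74 ± 0.379, Bik at 0.356 ± 0.115 and Bok at 0.0809 ± 0.0423 CPM per kb. The ranges of neighbours in this order overlapped in 0 of 9 pairs in KO libraries and in 0 of 9 in Control libraries. Among the members, both lines thus held Mcl1 as the main survival transcript and Bid as the main BH3-only transcript. Bak1 ranked above Bok, at 0 to 4 counts, the only other effector among the members. Bax, an effector outside the members, was not ranked per kb. Its mean was 136 CPM in KO and 92.1 CPM in Control, over 1576 exon bases. Bak1 had 171 CPM in KO and 124 CPM in Control, over 2407 exon bases. Bak1 was therefore not shown to be the main effector transcript of either line.

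As shares of the summed CPM per kb of the 10 members, the survival genes made up 60.1 ± 2.84% in KO and 62.5 ± 1.03% in Control, the effectors 19.3 ± 2.65% in KO and 18.3 ± 1.19% in Control, and the BH3-only genes 20.6 ± 0.543% in KO and 19.3 ± 1.15% in Control (SD, n = 3 each). The effector share was almost all Bak1 (19.2% in KO and 18.2% in Control). Bax, outside the 10 members, was not in the sum, so the shares hold for these 10 genes only. The sum itself was 326 to 391 CPM per kb in KO libraries and 264 to 298 in Control libraries. Survival genes summed to 194 to 247 in KO and 168 to 185 in Control. Effectors summed to 62.4 to 85.4 in KO and 45.7 to 58.4 in Control, and BH3-only genes to 69.0 to 79.6 and 50.5 to 57.8. A share can therefore be lower in KO libraries without a lower level, as for Bcl2l1 (log2 fold change 0.16). The share ranges of KO and Control libraries overlapped for each of the 3 roles, whereas single survival and BH3-only members differed without overlap. Bcl2 held 0.35 to 0.66% in KO libraries and 0.85 to 1.20% in Control libraries. Bcl2l1 held 4.15 to 4.90% in KO and 5.07 to 5.63% in Control, and Bmf 0.18 to 0.25% in KO and 0.47 to 0.79% in Control. The shares of Mcl1, Bak1, Bad and Bik overlapped. In CPM the groups did not overlap for 43% of all genes tested, and no such background was computed for shares. Bid held 16.1, 15.3 and 15.3% in KO libraries 1, 2 and 3, against 13.6, 12.3 and 11.9% in Control libraries. Bcl2l11 held 1.85, 1.36 and 1.45% in KO libraries, against 2.4, 2.7 and 2.38% in Control libraries. Bcl2l11 stood at 9.94 ± 1.35% of the Bid level in KO and at 19.9 ± 2.12% in Control, and the libraries of the groups did not overlap. Relative to Mcl1, the most abundant of the survival genes, Bcl2l11 stood at 3.38, 2.32 and 2.78% in KO libraries and 4.32, 4.76 and 4.24% in Control libraries. Bcl2 stood at 15.8, 7.93 and 7.63% of the Bcl2l1 level in KO libraries, against 16.7, 21.2 and 18.2% in Control libraries, so KO library 1 was close to the Controls in that ratio. These sums, shares and ratios are descriptions with no test, and they carry no offsets for exon length and GC content. With those offsets the log2 fold changes of Bid and Bcl2l11 were 0.58 and -0.08, against 0.70 and -0.30 without them.

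Of 14 other genes of the family, 9 were tested, and Bbc3 was higher and Bcl2a1b lower in KO libraries (1 and 1 called), beside the 25.3% called over all genes. Bbc3, the gene of the p53-induced BH3-only protein PUMA, had 18.3, 12.4 and 13.6 CPM in KO libraries 1, 2 and 3, against 6.17, 9.30 and 8.91 CPM in Control libraries (log2 fold change 0.85, SE 0.22, edgeR adjusted p = 0.0235). All KO libraries were above all Controls. The call was lost without KO library 3 (adjusted p = 0.0574), Control library 1 (0.0547) or Control library 2 (0.0693), with total counts alone (0.0626), and with length and GC trends removed (0.0864). Bcl2a1b, a survival gene with near-identical neighbouring copies among which reads may be split, had 4, 1 and 0 counts in KO libraries, against 29, 10 and 34 in Control libraries (edgeR adjusted p = 0.0165, 0.0704 without KO library 2 and 0.0593 without KO library 3). Bax, the effector that acts beside BAK, had 96.8, 134 and 179 CPM in KO libraries, against 89.4, 78.6 and 108 CPM in Control libraries. KO library 1 lay inside the Control range, and the log2 fold change of 0.57 (SE 0.22, edgeR adjusted p = 0.0763) was not called. It was called without KO library 1 (0.76, edgeR adjusted p = 0.00351). Bnip3l, a mitophagy receptor, had 97.5 ± 2.88 CPM in KO and 93.0 ± 8.86 CPM in Control and was not called.

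**Figure D3:**
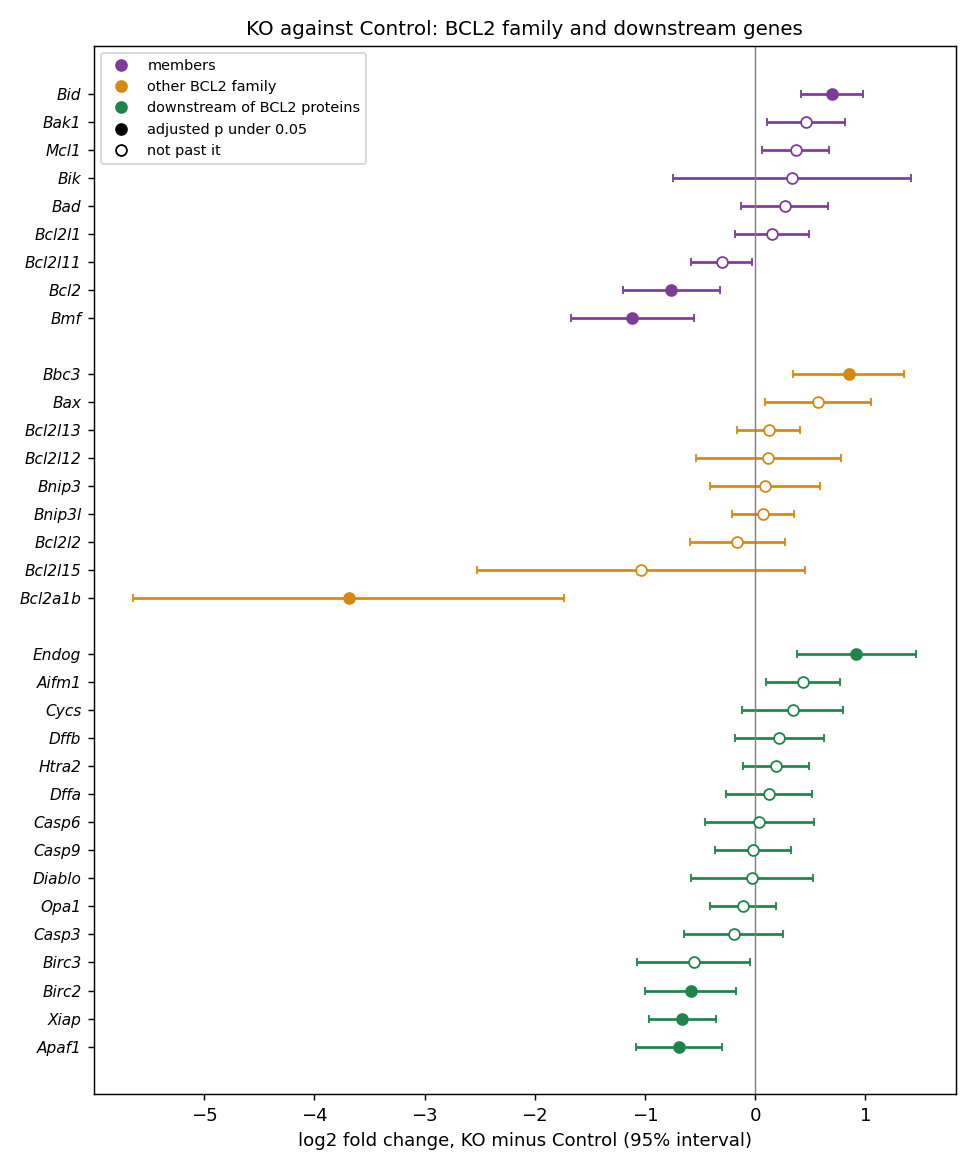
Log2 fold changes (KO minus Control) with 95% intervals for the tested members, the other tested BCL2 family genes and the genes acting downstream (filled points have an adjusted p under 0.05). Bid and Bbc3 lie to the right of 0 and Bcl2, Bmf, Apaf1 and Xiap to the left.

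Downstream of the mitochondrion, cytochrome c and APAF-1 form the platform that activates caspase 9, and inhibitor of apoptosis proteins hold caspases in check. Of 15 such genes, all tested, 1 was higher and 3 were lower in KO libraries, beside the 25.3% called over all genes. Apaf1 had 25.1 ± 3.65 CPM in KO and 40.7 ± 7.43 CPM in Control (-0.69, edgeR adjusted p = 0.0199). The caspase inhibitors Xiap (31.1 ± 0.547 CPM in KO, 49.1 ± 5.75 CPM in Control, -0.66) and Birc2 (15.8 ± 1.5 CPM in KO, 23.7 ± 5.08 CPM in Control, -0.59) were lower. Endog, a mitochondrial nuclease, was called higher (0.92, edgeR adjusted p = 0.0235), although KO library 1 (19.9 CPM) lay inside the Control range of 13.6 to 20.4 CPM. Without Control library 2, the calls of Apaf1 (adjusted p = 0.104), Xiap (0.0582), Birc2 (0.165) and Endog (0.105) were lost. Apaf1 was also lost without KO library 3 (0.0649) or Control library 3 (0.0565), Birc2 without KO library 2 (0.0805), KO library 3 (0.138) or Control library 3 (0.150), and Endog without KO library 2 (0.0897), KO library 3 (0.0892) or Control library 3 (0.0707). With length and GC trends removed, neither Apaf1 (-0.44, edgeR adjusted p = 0.114) nor Endog (0.53, 0.0922) was called. Cycs, which encodes cytochrome c (0.34, edgeR adjusted p = 0.239), and Opa1, which shapes the inner membrane (-0.11, 0.560), were not called.

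Of 29 genes whose products bind, phosphorylate, turn over or transcribe BCL2 family members, 3 were higher and 3 lower in KO libraries, again beside 25.3% over all genes. Ddit3, the gene of the stress factor CHOP, which is described as an activator of Bcl2l11 and Bbc3, had 39.9, 13.6 and 16.5 CPM in KO libraries 1, 2 and 3, against 6.98, 7.35 and 7.55 CPM in Control libraries (log2 fold change 1.67, edgeR adjusted p = 0.0119, 0.0528 without Control library 2). KO library 1 was far above the other KO libraries, and without it the log2 fold change was 1.04. Foxo3, a FOXO factor described as an activator of Bcl2l11, had 50.03 ± 3.8 CPM in KO and 73.4 ± 6.59 CPM in Control (-0.55, edgeR adjusted p = 0.0170). It was not called without KO library 2 (adjusted p = 0.0690), KO library 3 (0.0637) or Control library 2 (0.104), nor with length and GC trends removed (-0.22, 0.181).

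Huwe1 and Usp9x, both lower, act on the MCL-1 protein in opposite ways. Huwe1, a ubiquitin ligase that marks MCL-1 for degradation, had 582, 292 and 353 CPM in KO libraries 1, 2 and 3, against 1061, 1072 and 632 CPM in Control libraries (-1.17, edgeR adjusted p = 0.0160). Usp9x, a deubiquitinase that protects MCL-1, had 90.2, 58.2 and 48.5 CPM in KO libraries, against 128, 144 and 114 CPM in Control libraries (-0.97, edgeR adjusted p = 0.0132). Neither pair of groups overlapped, and both transcripts were highest among the KO libraries in library 1. With length and GC trends removed, Huwe1 was -0.46 and not called (adjusted p = 0.0870). Huwe1 was also not called without KO library 2 (0.0604), KO library 3 (0.0630), Control library 1 (0.0525) or Control library 2 (0.0727), nor Usp9x without KO library 2 (0.0583) or Control library 2 (0.0653). Pim1, a kinase that phosphorylates BAD, was higher at 39.5 ± 8.44 CPM in KO and 19.5 ± 5.0 CPM in Control (1.01, edgeR adjusted p = 0.0127) and was called without any 1 of the libraries. Dynll1, the dynein light chain that binds BIM, was called higher (0.62, edgeR adjusted p = 0.0431), with KO library 1 (138 CPM) inside the Control range of 113 to 142 CPM. That call was lost on leaving out any library other than KO library 1, at adjusted p of 0.0534 to 0.163, and also with total counts alone (0.0810) and with length and GC trends removed (0.0640, and 0.0907 with the replicate block). Ywhae, a 14-3-3 gene (0.22, edgeR adjusted p = 0.249), and Vdac2, the outer membrane channel that binds BAK (0.40, 0.0595), were not called, although Vdac2 was without KO library 1 (0.0209) or Control library 1 (0.0445).

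The genes whose pattern over the 6 libraries was most like that of Bid, the member with the lowest adjusted p, were Gm17018, BC004004 and Rab34, a small GTPase. The root mean square distances of their centred log2 CPM from that of Bid were 0.0330, 0.0400 and 0.0448. Their log2 fold changes were 0.70, 0.69 and 0.66, beside 0.70 for Bid. Genes picked by this distance have fold changes close to that of Bid by construction.

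**Figure D4:**
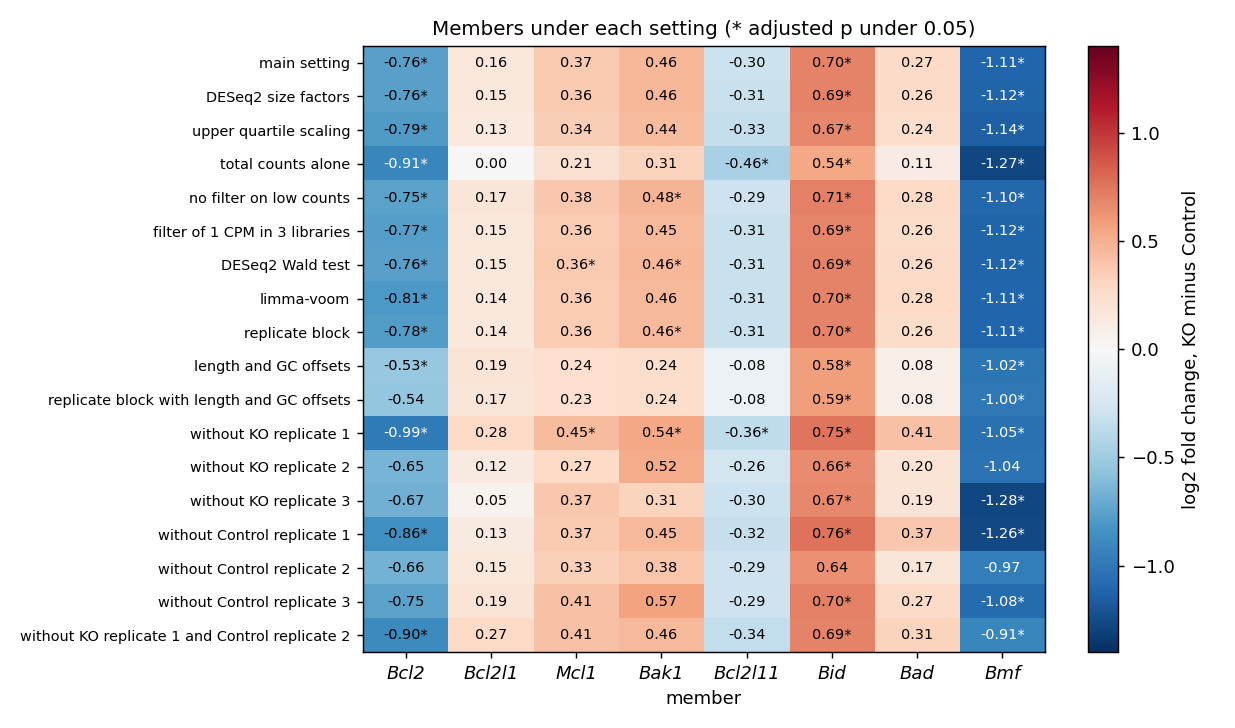
Log2 fold changes (KO minus Control; colour and number) of the 8 members above 1 CPM under the main setting and the 17 alternatives, with asterisks at an adjusted p under 0.05. Bid is positive and Bcl2 and Bmf are negative in every line, and without Control library 2 none of the members is called.

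Across all settings the sign of Bid, Mcl1, Bak1 and Bad was positive and that of Bcl2, Bcl2l11 and Bmf negative, as the plot of members under each setting shows. The number of members called moved with the libraries kept. Without KO library 1, 3 were higher and 3 lower, and without Control library 2, 0 were higher and 0 lower. In the fit without Control library 2, 3 of the 9 tested had an unadjusted p under 0.05 in edgeR, beside 3177 of all 11607 genes tested. Over all genes the calls moved too, to 42.2% without KO library 1 and 5.50% without Control library 2. With both of these libraries left out, an alternative added after seeing the data, Bid (0.69, edgeR adjusted p = 0.00748), Bcl2 (-0.90, 0.00724) and Bmf (-0.91, 0.0434) were the members called, and 26.6% of all genes were.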

How the data were processed

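RNA of 6 libraries was sequenced. The table deposited by the authors gives, for each gene symbol, an unscaled read count in every library. The submitters' processing notes name Trimmomatic 0.39, STAR 2.7.5c, StringTie 2.1.7 and the build mm10. The counter, annotation release and strandedness were not given in the sources used here, so reads of overlapping genes cannot be separated by strand. Columns were matched to samples by name.

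Of 31205 genes, 11453 passed edgeR's filterByExpr. Totals were scaled by TMM factors. KO was tested against Control with glmQLFTest (quasi-likelihood, two-sided) in edgeR 4.0.16 under R 4.3.3, with limma 3.58.1, and p-values were adjusted by Benjamini-Hochberg over all genes tested, with calls under 0.05. The biological coefficient of variation common to all genes was 17.5%. Per-length levels divide CPM by the merged exon length of GENCODE M21 (mm10). Promoters came from RefSeq (GRCm38.p6), which held 9 of the 10 members. No pair of replicates agreed within sampling noise. DESeq2 1.42.0, limma-voom, other scalings and filters, a replicate block, loess offsets for length and GC (span 0.3) and leaving out libraries were tried.

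The members and lists were chosen with earlier results of these data known. All members were named, with up to 6 called genes and the 2 most abundant others of each further list, and the 3 genes nearest to the member with the lowest adjusted p. A gene of the downstream list is not reported here, and the counts of that list leave it out.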

Additional observations from a re-analysis of the deposited data

How the results depend on the processing

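Over the 17 alternatives no called direction reversed. Bik, never called, changed sign in at least 1 of them (lowest log2 fold change -0.020). Scaling by total counts alone moved the median of all genes to -0.14 and the calls to 667 higher and 2212 lower (23.2% higher, against 46.7%). There Bcl2l11 was called at -0.46, 1 member was higher and 3 were lower, and 0 other family genes were higher. By DESeq2's Wald test Mcl1 (0.36) and Bak1 (0.46) were called, so 3 members were higher, with 2 other family genes and 2 downstream genes higher. Without the filter on low counts Bak1 was called (0.48), giving 2 members, 2 other family genes and 2 downstream genes higher. A filter of 1 CPM in 3 libraries left 0 other family genes lower, since Bcl2a1b was not tested. With length and GC offsets, 0 downstream genes were higher and 1 partner gene was lower. The cause of these changes was not tested where none is named.

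Same-numbered libraries were not taken as pairs: the correlations of their deviations from the group means were 0.15, -0.06 and 0.36, and 4 of 6 libraries correlated best with their own number. With the replicate block Bak1 was called (0.46), so 2 members and 2 other family genes were higher. With the block and the length and GC offsets Bcl2 was not called (-0.54), so 1 member was lower, 0 downstream genes were higher and 1 partner gene was lower.

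Leaving out libraries, singly or KO library 1 with Control library 2, gave log2 fold changes of -0.99 to -0.65 for Bcl2, 0.27 to 0.45 for Mcl1, 0.31 to 0.57 for Bak1, -0.36 to -0.26 for Bcl2l11, 0.64 to 0.76 for Bid and -1.28 to -0.91 for Bmf. Members called ranged from 0 to 3 higher and 0 to 3 lower, other family genes from 0 to 2 higher and 0 to 2 lower, downstream genes from 0 to 3 higher and 0 to 4 lower, partner genes from 1 to 5 higher and 0 to 6 lower, and all genes from 166 to 2346 higher and 472 to 2616 lower. With 0 members called, without Control library 2, 3177 of the 11607 genes tested still had an unadjusted p under 0.05 in edgeR. With 6 libraries of 7 to 13 counts for Bik and at most 4 for Bok, depth limits what can be said of these genes.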
